A study of Mus musculus with 4 samples.

Results

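The genes described here encode SNAREs, the active zone scaffold and factors that prepare synaptic vesicles for release, 34 genes of the 21900 protein-coding genes in the reference. They were listed by name, with earlier results of these data known. Every binding peak that overlapped the GRCm38 span of one of them was counted as a peak of that gene. This gave 1351 of 97775 peaks in cortex and 21 of 7335 peaks in N2A. The peaks come from Elavl HITS-CLIP, in which ultraviolet light crosslinks Elavl proteins to the RNA they touch before immunoprecipitation, partial RNase digestion and sequencing. There were 3 cortex samples of mouse brain, prepared with a degenerate linker of 25 nt, and 1 sample of N2A cells, a mouse neuroblastoma line, prepared with a linker of 7 nt. The labels give no genotype, strain or treatment for either group, and the name of the cortex list carries the words for 2 months without explaining them.

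Each group was represented by 1 deposited list of peaks 50 to 51 nt wide, with a p-value per peak and no read count. The lists give nothing per sample, so the spread between replicates could not be computed, no difference between cortex and N2A could be tested, and the sequencing depth is unknown. The lists differed in length by a ratio of 13.3, cortex over N2A, and linker design differed with the group. Linker and group cannot be told apart. A gene without a peak is a gene without a called site, which is not a gene without binding. Intervals in brackets are Wilson 95% intervals for counting error alone, and peaks of 1 gene share that gene's RNA, so they are not replicates. Marker genes of the labelled sources were looked up in both lists. Cortex peaks lay in 5 of 5 excitatory neuron markers and 4 of 5 interneuron markers, with Sst at 0, and also in 3 of 4 astrocyte markers, with Gfap at 0, and 4 of 4 oligodendrocyte markers. All 18 of these genes had 0 N2A peaks. Over all coding genes 40.8% had a cortex peak and 14.5% an N2A peak. With the N2A share that low, a count of 0 among 18 genes tells little about the source. Of 6 sympathoadrenal markers, 0 had a cortex peak and 4 had an N2A peak, with Th and Dbh at 0 in both lists.

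Synaptic vesicles fuse when a vesicle SNARE of the synaptobrevin type zippers together with the plasma membrane SNAREs syntaxin and SNAP-25. Munc13 and CAPS proteins prime vesicles for that step, complexins and tomosyns regulate it, and NSF with its SNAP adaptors takes the spent complexes apart. RIM, RIM-binding protein, ELKS, liprin, bassoon and piccolo build the active zone that holds vesicles near calcium channels, and synapsins keep the reserve pool together. Elavl proteins bind U-rich and AU-rich stretches in introns and 3′ untranslated regions, where they influence splicing, stability and translation of neuronal mRNAs.

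In cortex 33 of the 34 genes had at least 1 peak, against 40.8% of all coding genes. The members were chosen with earlier results of these data known, so this count may partly reflect the choice. Of 34 further release genes, with a shorter median span of 26.7 kb, 25 had a cortex peak. Stx1a, a plasma membrane syntaxin, was the only member with none. In N2A 10 of the 34 had a peak, against 14.5% of all coding genes, and all 10 also had cortex peaks. Of the 3184 coding genes with an N2A peak, only 270 had no cortex peak. With a cortex peak in 33 of 34 members, this overlap was also nearly fixed in advance. Release machinery took 1.38% of the cortex list (1.31 to 1.46) and 0.286% of the N2A list (0.187 to 0.437). Peaks in the members were 64.3 times as many in cortex as in N2A, while over all coding genes the same ratio was 13.3. The members are long genes, with a median span of 123.5 kb against 17.1 kb for all coding genes, and the share of genes with a peak differed with length. Of coding genes of at least 100 kb, 78.7% had a cortex peak and 24.0% an N2A peak, while for shorter genes the shares were 36.1% and 13.4%. Among the members, all 18 of at least 100 kb had a cortex peak and 2 had an N2A peak, and of the 16 shorter ones 15 had a cortex peak and 8 an N2A peak. The ratio of cortex to N2A peaks differed with length as well. Counting own-strand peaks, it was 11.1 for the shorter members and 150.0 for the longer ones, which had 8 such N2A peaks, against 6.43 and 41.5 for all coding genes. The counts below are therefore given with gene length.

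**Figure D1:**
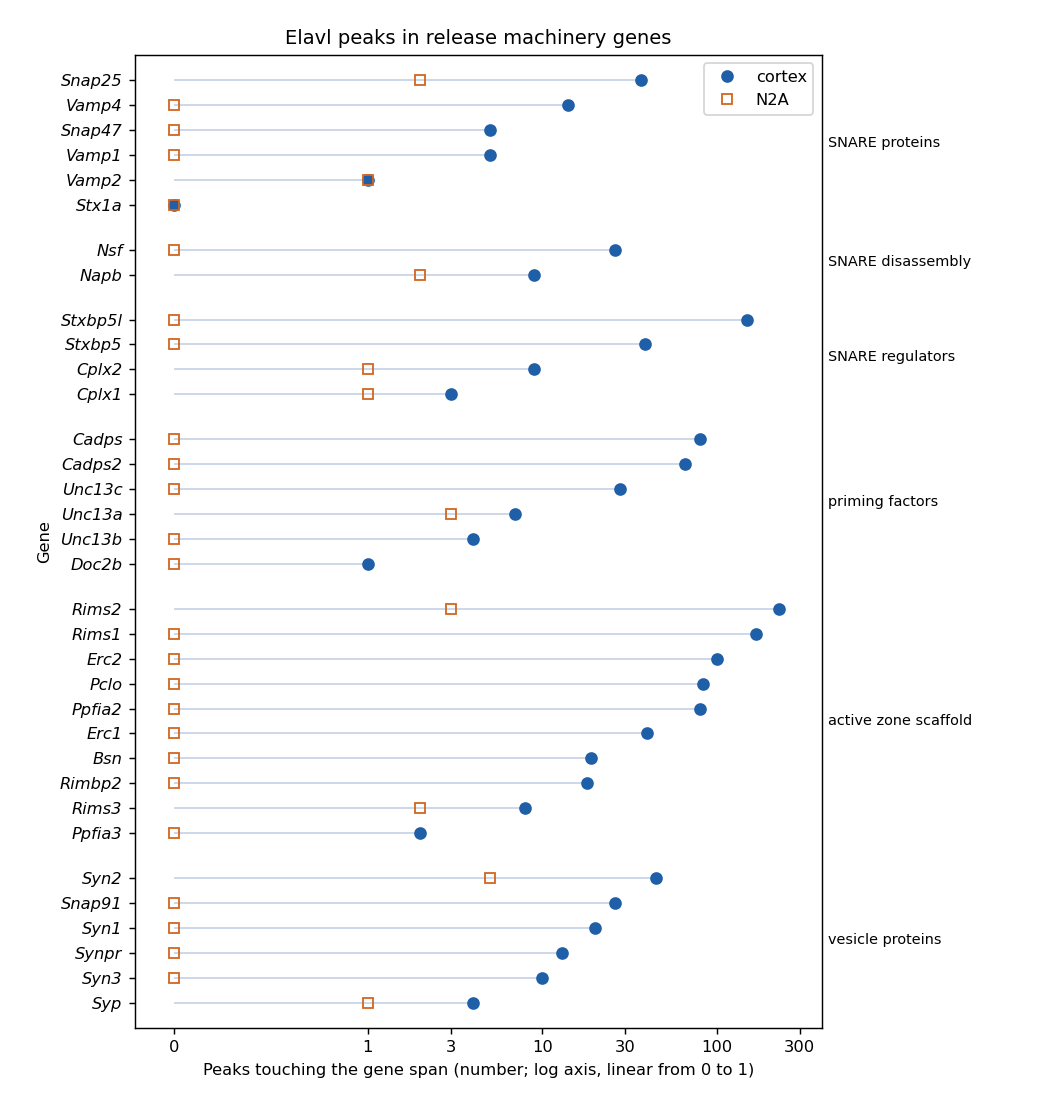
Number of Elavl peaks in each of the 34 genes, by role, on a log axis that is linear from 0 to 1; filled circles are cortex and open squares N2A. Cortex counts run from 0 for Stx1a to 229 for Rims2, and N2A counts from 0 to 5, the highest being Syn2.

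Among the 6 SNARE genes, Snap25 held 37 of 62 cortex peaks. Snap25 encodes the plasma membrane SNARE that contributes a pair of helices to the complex, and its strongest peak, with a p listed as 0, was chr2:136781437-136781488 on the plus strand, 0.94 kb before the gene end. Only 2 of its 37 peaks were in the last 5 kb. The rest lay inside the 69.0 kb gene, and the densest 5 kb held 9 peaks, starting at 136766004, 11.5 kb or more before the end. Vamp2, the main synaptobrevin of forebrain synapses, had 1 cortex peak in a gene of 3.85 kb, which is shorter than the 5 kb window. That peak, at chr11:69091297-69091347, plus strand, also had a p listed as 0. Of all 21900 coding genes 60 reached this value, and Snap25 and Vamp2 were the only members among them.

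Vamp1, Vamp4 and Snap47 had more cortex peaks than Vamp2, but none with a p as low. Vamp1, the synaptobrevin that predominates in spinal cord and brainstem, had 5 cortex peaks, all within 5 kb of the end of a 6.73 kb gene, and the lowest p was 7.14e-29. Vamp4, a SNARE of endosomes and the trans-Golgi network, had 14, of which 8 were in the last 5 kb (best p 4.36e-31). Snap47, a relative of Snap25 found on intracellular membranes, had 5, with the strongest 0.166 kb from the gene end (p 2.42e-32). In N2A, Snap25 had 2 peaks and Vamp2 had 1, and the other 4 SNARE genes had 0. The N2A peak of Snap25 at 136781347 to 136781398 (p 3.71e-11) was the strongest N2A peak in any member and lay 39 nt from its strongest cortex peak. The N2A peak of Vamp2 at 69091202 to 69091253 (p 0.00127) lay 44 nt from the cortex one. These peaks of the 2 genes thus lay at nearby but not overlapping places in the 2 lists. The second N2A peak of Snap25, at 136782331 to 136782381 (p 0.00424), lay 0.047 kb from the gene end. It was 843 nt from the nearest cortex peak.

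Both genes of SNARE disassembly had cortex peaks. Nsf, the ATPase that unwinds SNARE complexes, had 26 in 132.3 kb, and its 3 strong peaks, defined here as those with p under 1e-10, were all in the last 5 kb. The strongest was at chr11:103821850-103821901, minus strand, 0.068 kb from the end (p 1.35e-33). Napb, the brain-enriched SNAP adaptor of NSF, had 9 cortex peaks. Its strongest, at chr2:148697126-148697177, minus strand (p 5.68e-96), overlapped an N2A peak at 148697090 to 148697140 by 15 nt. A further 5 Napb peaks sat together near the start of the gene, within 3975 nt, more than 30.3 kb from the end. Napb had a second N2A peak at 148696812 to 148696862, and Nsf had 0.

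The 4 SNARE regulators differed in the number and place of their peaks. The tomosyns, which compete with synaptobrevin for the plasma membrane SNAREs, had many peaks. Stxbp5l (tomosyn-2) had 149 in 277.9 kb, rank 55 of all coding genes by number, and Stxbp5 (tomosyn-1) had 39 in 145.7 kb. The strongest Stxbp5l peak lay at chr16:37113558-37113609, minus strand, 6.48 kb from the end (p 6.43e-59), inside the densest stretch of that gene, with 11 peaks in 4698 nt. Stxbp5 also had 11 peaks in its last 5 kb, the highest number there of any member, yet its strongest peak (p 1.15e-41) lay 142.0 kb from the end, close to the gene start. Complexins, which clamp and then assist SNARE zippering, had few peaks but strong ones near the gene end. Cplx2 had 9 peaks in cortex, 7 of them in the last 5 kb, and its strongest was at chr13:54381846-54381897, plus strand (p 3.48e-240). Cplx1 had 3, the strongest at chr5:108518994-108519045, minus strand (p 1.42e-61). Each complexin had 1 N2A peak, and neither tomosyn had any. The N2A peak of Cplx2, at 54379797 to 54379847 (p 0.00349), overlapped its second strongest cortex peak by 29 nt. That of Cplx1, at 108519511 to 108519562 (p 0.0409), was 466 nt from the nearest cortex peak. Every Cplx2 peak also touched a second annotated locus, LOC115488208.

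Priming factors varied more than their length did. Cadps, the calcium-dependent activator that primes dense-core vesicles, had 80 cortex peaks, and its relative Cadps2 had 66. Their strongest peaks sat almost at the gene end. The one in Cadps was at chr14:12372857-12372908, minus strand, 0.297 kb from the end (p 3.99e-66), and the one in Cadps2 at chr6:23262893-23262944, minus strand, 0.12 kb from the end (p 4.47e-120). Cadps had 2 peaks in its last 5 kb and Cadps2 had 1, so the remaining sites were inside the gene. The 3 Munc13 genes had fewer. Unc13a, the main isoform of excitatory forebrain synapses, had 7 peaks in 47.7 kb, Unc13b had 4 in 218.7 kb, and Unc13c, best known from cerebellar granule cells, had 28 in 528.7 kb. Unc13c is slightly longer than Rims1, which had 169 peaks. Doc2b, a calcium sensor of spontaneous release, had 1 peak with a p of 0.0206, the weakest best peak of any member that had one. Only Unc13a of this group had N2A peaks. All 3 lay in the last 5 kb, and the strongest, at chr8:71626931-71626982, minus strand (p 0.00941), was 68 nt from the strongest cortex peak at 71626812 to 71626863 (p 5.23e-15). A second one, at 71628133 to 71628184, overlapped a cortex peak by 30 nt.

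**Figure D2:**
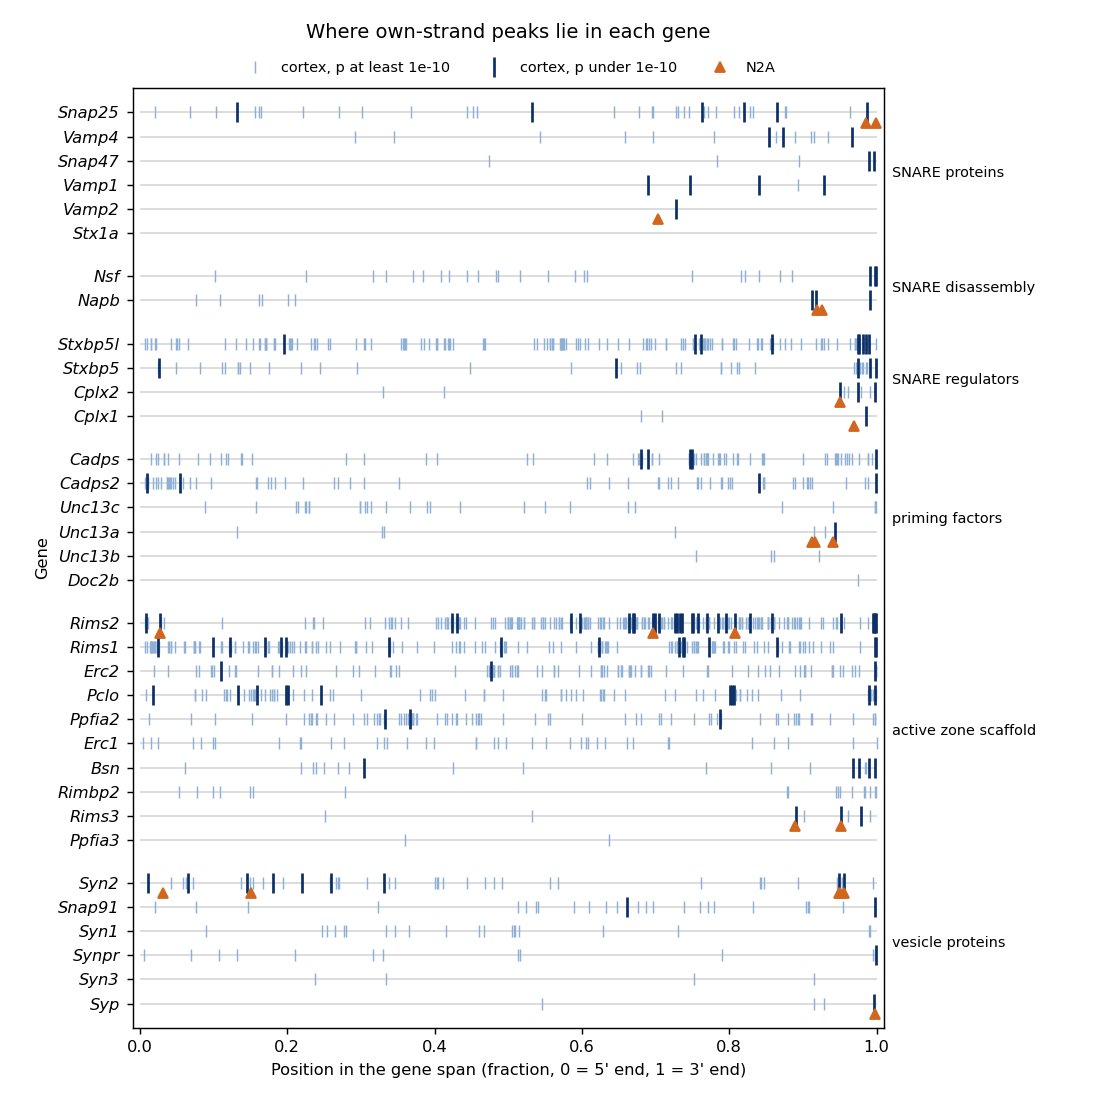
Position of each own-strand peak along its gene, from the 5′ end (0) to the 3′ end (1); light ticks are cortex peaks with p of at least 1e-10, dark ticks cortex peaks with p under 1e-10, and triangles just below a gene's line its N2A peaks. Vamp1, Rims3 and Cplx2 have all their dark ticks within 5 kb of the 3′ end, though Vamp1 is only 6.73 kb long. Most or all dark ticks lie outside the last 5 kb in Rims2 (26 of 30), Snap25 (5 of 6) and Syn2 (9 of 9).

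The active zone scaffold held 750 of the 1351 cortex peaks in 10 genes, and all 10 had at least 1. RIM proteins, which tether calcium channels and vesicles, led. Rims2 had 229 cortex peaks in 486.1 kb, rank 29 of all coding genes by number, and Rims1 had 169 in 520.2 kb, rank 45. The strongest Rims2 peak was at chr15:39579379-39579429, plus strand, 104.9 kb from the end (p 3.87e-87). In Rims1 the strongest was 468.5 kb from the end, near the start (p 2.95e-93). Rims3, a short family member without the vesicle-binding part, had 8 peaks in 41.8 kb, 6 of them in the last 5 kb. Its strongest, at chr4:120895625-120895676, plus strand, had the lowest p of the scaffold genes (2.11e-187). By number, the short RIM gene thus had most of its peaks at its end and the long ones most of theirs inside. Per 100 kb, however, the last 5 kb was the denser part in both long genes. It held 80 peaks per 100 kb against 46.8 elsewhere in Rims2, and 40 against 32.4 in Rims1. Those end densities rest on 4 and 2 peaks.

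The large scaffold proteins followed in number. Pclo (piccolo) had 84 cortex peaks, of which 9 lay in the last 5 kb, and its strongest was 263.1 kb from the end (p 9.73e-175). Bsn (bassoon) had 19 in 94.4 kb, with 4 of its 5 strong peaks in the last 5 kb (best p 4.60e-186). Of the ELKS genes, Erc2, the brain form, had 101 peaks in 856.3 kb and Erc1, the more widely expressed form, had 40 in 277.4 kb. No Erc1 peak was strong (best p 4.68e-10), against 3 in Erc2 (best p 2.24e-40). The liprin gene Ppfia2 had 80 peaks, 9 of which also lay in the noncoding gene 4930532I03Rik, and Ppfia3 had 2. Rimbp2, which links RIM to calcium channels, had 18 and no strong one. N2A peaks were found only in Rims2 and Rims3 among these 10 genes. Those of Rims3, at 120891928 to 120891979 (p 0.00837) and 120894509 to 120894560 (p 0.0272), overlapped cortex peaks by 47 and 50 nt. Those of Rims2 all lay 93.7 kb or more from the end, and the one at 39211593 was 13.3 kb from the gene start. The strongest, at 39590658 to 39590708 (p 0.000322), and the next, at 39211593 to 39211643 (p 0.00168), overlapped cortex peaks by 44 and 49 nt, and the third, at 39536841 to 39536891 (p 0.0260), was 188 nt from one.

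Proteins of the vesicle and of its recycling formed the last group. Syn2, a synapsin, had 45 cortex peaks in 147.7 kb, with the strongest at chr6:115144488-115144538, plus strand, 138.1 kb from the end (p 2.36e-77). All 9 of its strong peaks were outside the last 5 kb, and 1 of its 45 peaks was inside that window. Syn1 had 20 peaks in 60.4 kb, and none was strong (best p 1.82e-08). Snap91, a clathrin assembly protein of vesicle recycling, had 26 peaks and the third lowest best p of the members, 6.76e-306, at chr9:86766226-86766277, minus strand, 0.303 kb from the end. Syp (synaptophysin) had 4, the strongest at chrX:7653163-7653213, plus strand, 0.043 kb from the end (p 4.44e-55). Its relative Synpr (synaptoporin) had 13 in 330.7 kb (best p 1.69e-20). The single N2A peak of Syp, at 7653171 to 7653221 (p 0.00189), overlapped that cortex peak by 43 nt.

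Syn2 had 5 N2A peaks, the most of any member. A group of 3 lay 6.48 to 7.60 kb from the end, and the strongest of them, at 115276091 to 115276142 (p 2.69e-08), overlapped the second strongest cortex peak by 37 nt. The other 2 lay 125.4 and 143.0 kb from the end, with p of 0.0210 and 0.0878. The N2A sites of Syn2 and Rims2 were thus the only ones in members that fell outside the last 5 kb.

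The peaks counted for Syn3 were mostly those of another gene (this case was chosen after its values had been seen). The span of Syn3, a synapsin gene of 450.2 kb, contains Timp3, an inhibitor of extracellular proteases. Of the 10 cortex peaks in the Syn3 span, 6 lay on the plus strand inside Timp3, which the promoter table places on that strand, and these included the strongest, at 86346947 to 86346997 on chromosome 10 (p 1.92e-80). The 4 peaks on the minus strand had p of 0.0073 or higher, and the lowest of them also lay in Timp3. Outside Timp3 there were 3, all on the minus strand, with a lowest p of 0.0225. Among other nested inhibitor genes, Timp4 in Syn2 contained 1 cortex peak, on the strand of Syn2, and Timp1 in Syn1 contained none. Apart from Syn3 and 1 weak Pclo peak, every cortex peak in a member lay on the gene's own strand. For the 29 members with a strand in the promoter table, and counting peaks that touched no other coding gene, 1071 of 1072 cortex peaks were on it (99.9%), against 99.3% for all coding genes. The strand of Snap25, Vamp2, Rims2, Syn3 and Doc2b was taken from their peaks, so it checks nothing there.

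Across the 34 genes, the number of cortex peaks and the span went together (Spearman correlation 0.821, against 0.538 over all 21900 coding genes, which are not independent and include genes without peaks). The 18 members of at least 100 kb held 1207 cortex peaks and the 16 shorter ones 144. Length did not fix the number. Among the 18 long members, own-strand cortex peaks outside the last 5 kb ranged in density from 0.899 per 100 kb in Syn3 and 1.87 in Unc13b to 46.8 in Rims2 and 52.8 in Stxbp5l, a wide spread. Their median was 17.1 per 100 kb, against 3.09 for the 2429 coding genes of that length, of which 1911 had a cortex peak. Among those 1911 the median was 5.62, and all 18 members had a peak. Over all lengths, the 33 members with a cortex peak had a median of 19.1 peaks per 100 kb, against 12.4 for the 8939 coding genes with one. Expression was not measured, and the 2429 genes include genes that the samples may not transcribe.

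**Figure D3:**
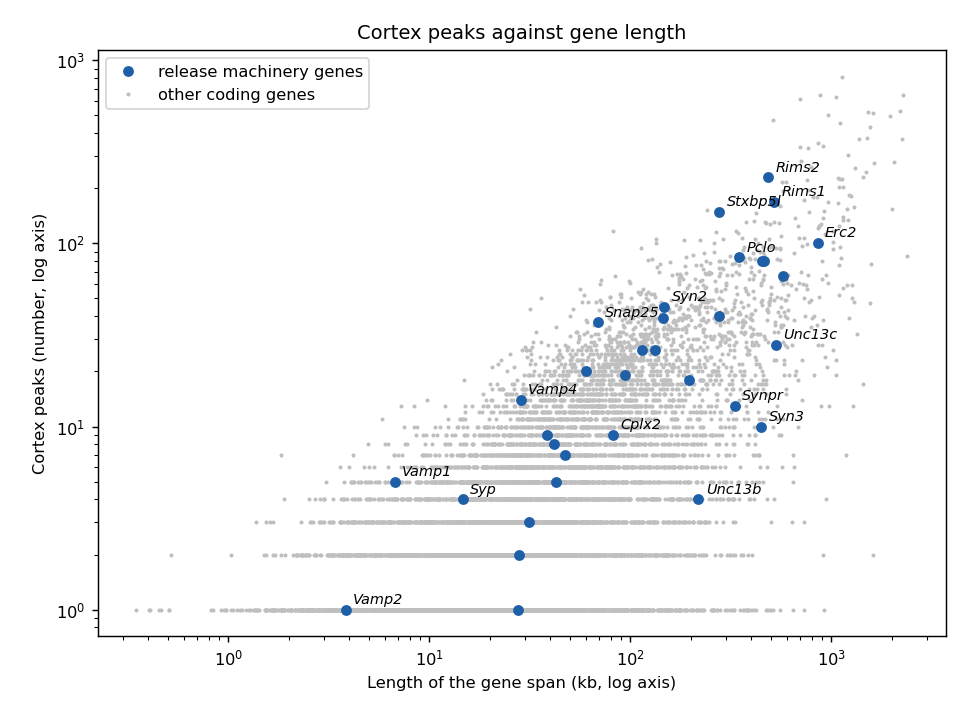
Cortex peaks against the length of the gene span, both on log axes, for genes with at least 1 cortex peak; large points are the release machinery genes and small grey points all other coding genes. Stxbp5l, Rims2 and Rims1 lie near the upper edge for their length, whereas Unc13b, Syn3, Synpr and Unc13c lie low.

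Each long gene was next divided into 5 equal parts, called quintiles, from start to end. Of their 1141 own-strand cortex peaks outside the last 5 kb, 26.5% (24.0 to 29.1) fell in the fourth quintile and 19.7% (17.5 to 22.1) in the first. Over all coding genes of that length the corresponding shares were 16.7% and 28.2%. Rims2 weighed heavily in this, because 91 of its 225 such peaks were in the fourth quintile and 9 in the first. Without Rims2 the shares were 23.0% (20.4 to 25.9) in the fourth and 23.6% (20.9 to 26.4) in the first, so the excess of the fourth quintile over the first rested on that gene. Individual genes differed. Cadps had 35 of 78 in the fourth quintile and 3 in the third, Cadps2 had 27 of 65 in the first and 0 in the third, and Ppfia2 had 31 of 77 in the second. In Pclo 27 of 74 were in the first quintile, and in Stxbp5l the counts were nearly level, from 23 to 32 per quintile.

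The share of peaks at the gene end was compared next, since Elavl sites in 3′ untranslated regions lie there. Exon maps were not used here, and the last 5 kb of the span on the gene's own strand stood in for them. In cortex 30 of the 34 members had a peak there, against 30.6% of all coding genes, and in N2A 8 did, against 12.0%. Of own-strand peaks in members, 8.18% (6.84 to 9.77) in cortex and 61.9% (40.9 to 79.2) in N2A were in this window. Over all coding genes the shares were 20.2% in cortex and 80.3% in N2A. Counted at the gene end alone, the members had 110 cortex and 13 N2A peaks, a ratio of 8.46, against 3.36 for all coding genes. Members under 100 kb had 51 and 13, a ratio of 3.92, against 2.94 for all coding genes of that length. The longer members had 59 and 0, and the ratio for all long coding genes was 5.61.

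Strong and weak cortex peaks were then placed separately. In members 48 of 134 own-strand peaks with p under 1e-10 lay in the last 5 kb (35.8%), against 62 of the other 1210 (5.12%). The same split over all coding genes gave 50.8% and 16.7%. The median p of member peaks was 5.62e-08 in the last 5 kb and 0.0107 elsewhere. Strong peaks were found in 25 members, against 15.5% of all coding genes and 39.8% of the 8544 with an own-strand cortex peak. Per peak there was no such difference. On either strand, 10.07% of cortex peaks in members and 10.12% in all coding genes had p under 1e-10. Members with a cortex peak had a median of 19 peaks, against 4 for all coding genes with one, and the count of genes was not adjusted for this. In 23 members a strong peak was at the end and in 13 one was elsewhere, against 13.0% and 6.0% of all coding genes. The 9 members without one were Stx1a, Unc13b, Unc13c, Rimbp2, Erc1, Ppfia3, Syn1, Doc2b and, on its own strand, Syn3. The strongest own-strand peak lay in the last 5 kb in 21 of 33 members and within 1 kb of the end in 13. Over the 8544 coding genes these shares were 60.8% and 32.6%. Few peaks were at the other end of the gene. The first 5 kb held 26 of 1344 own-strand cortex peaks in members (1.93%), against 5.69% over all coding genes. These shares were not split by gene length. The members are longer genes, so the difference cannot be told apart from length. In members 0 of the 1351 cortex peaks and 0 of the 21 N2A peaks touched an annotated promoter window. Such peaks were rare in the whole lists too, 0.114% of the cortex peaks and 0.232% of the N2A peaks.

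Members were also split by gene length. All 13 N2A peaks in members under 100 kb lay in the last 5 kb (100%, 77.2 to 100), against 84.1% for all coding genes of that length. Vamp2 is shorter than that window, so its N2A peak could lie nowhere else. In the longer members 0 of 8 N2A peaks lay in the last 5 kb (0 to 32.4%), against 64.6% of 1367 peaks in all long coding genes. Those 8 peaks came from 2 genes, Rims2 and Syn2, and 3 of them were within 10 kb of the end, so they are few and not independent. In cortex the shares at the end were 35.4% (28.1 to 43.5) in members under 100 kb and 4.92% (3.83 to 6.29) in longer ones, against 38.4% and 8.74% for all coding genes. For short genes in cortex the share over all coding genes lay within the interval of the members, and no test was run.

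**Figure D4:**
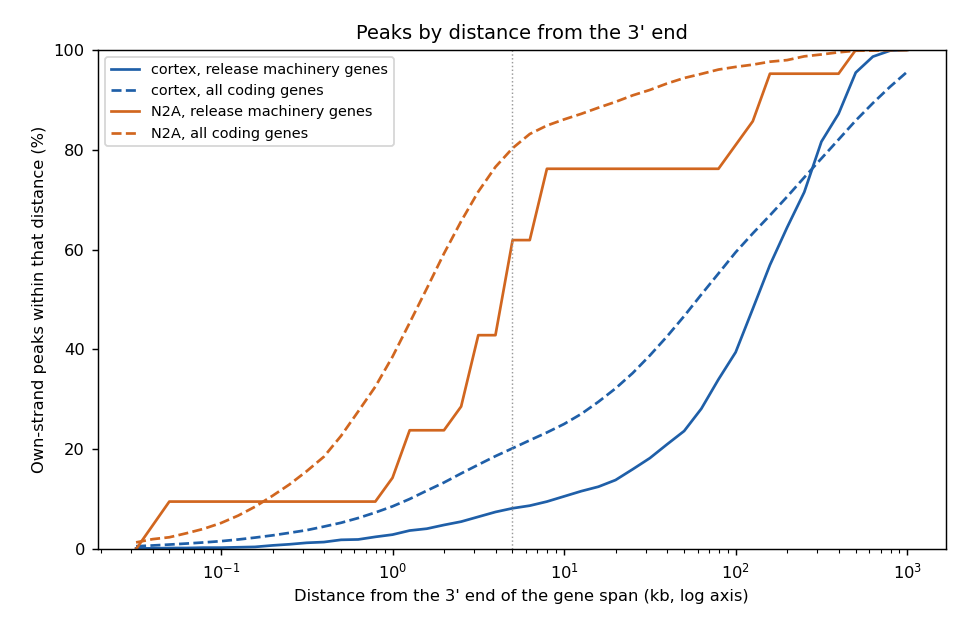
Share of own-strand peaks that lie within a given distance of the 3′ end of their gene, on a log axis; blue is cortex and orange N2A, solid lines are the release machinery genes, dashed lines all coding genes, and the dotted line marks 5 kb. At 5 kb the solid lines stand at 8.18% in cortex and 61.9% in N2A, below the dashed lines at 20.2% and 80.3%.

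Sites of the 2 lists often lay side by side. Of the 21 N2A peaks in members, 10 overlapped a cortex peak on the same strand (47.6%, 28.3 to 67.6), 14 were within 100 nt of one (66.7%) and 20 within 1000 nt (95.2%). For all 6936 N2A peaks in coding genes the shares were 42.5%, 59.9% and 86.8%. The exception was the weakest N2A peak of Syn2, 1567 nt from the nearest cortex peak. Overlapping sites were found in 7 of the 10 genes with N2A peaks. Snap25, Vamp2 and Cplx1 had N2A peaks near a cortex peak but none that overlapped one. Cortex peaks were dense in Rims2 and Syn2, with median gaps between starts of 873 and 1383.5 nt. A distance within 1000 nt therefore says little in these genes.

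Other genes of the release pathway were read from the same lists. Their counts stand beside shares of all coding genes with a peak, 40.8% in cortex and 14.5% in N2A. For coding genes under 100 kb these shares were 36.1% and 13.4%. Of 34 further release genes, 25 had a cortex peak and 8 an N2A peak, with 222 and 16 peaks in all, and their median span was 26.7 kb. Lin7a (36), Cask (31) and Apba1 (22), which form an adaptor complex at presynaptic sites, had the most cortex peaks. Rab3a, the vesicle GTPase that binds RIM, had 1, with a p listed as 0. Genes of this list with N2A peaks included Sypl (5), Rab3c (4), Vamp3, Ppfia1, Rims4, Syngr3 and Cask (1 each). The peak counted for Vamp3 also touched a further annotated gene, Gm38529, and the strand of Vamp3 was not determined, so this peak could not be assigned to it alone. Of 18 SNAREs of other intracellular membranes, 15 had cortex peaks and 7 had N2A peaks, led in cortex by Vti1a (17), Stx16 (9) and Stx7 (9). The N2A peaks were in Stx16, Stx7 and Stx12 (2 each) and in Gosr1, Gosr2, Sec22b and Ykt6 (1 each). All 16 genes of vesicle endocytosis had cortex peaks, 354 in total, and 8 had N2A peaks, 20 in total. Sh3gl2 (endophilin A1, 64), Picalm (51) and the dynamin gene Dnm3 (49) had the most in cortex. In N2A, Picalm had 5, Itsn1, Cltc, Eps15 and Bin1 had 3 each, and Ap2a1, Clta and Cltb had 1 each.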

How the data were processed

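Elavl HITS-CLIP peaks of 3 mouse cortex samples (1 shared list) and 1 N2A sample (1 list) were used. The deposited values are a p-value per peak made by the authors' peak calling; they run from 0 to under 0.1. For the peak caller, any adjustment of the p-value and any merging of cortex reads, the method is not given in the sources used here. Novoalign and build hg19 are named in the submitters' processing notes. Chromosome names are those of mouse, and 94.9% of cortex and 94.6% of N2A peaks touched a coding gene of RefSeq GRCm38.p6, so coordinates were read as GRCm38. They are printed as deposited; whether they count from 0 or 1 is not stated. Depth is unknown.

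A peak belonged to every coding gene whose span it overlapped by at least 1 nt, on either strand. Gene strand came from the RefSeq promoter table for 29 members and otherwise from most peaks touching no other coding gene. Distance was measured to the outermost annotated end. Counts are descriptions without tests, made with Python 3.11.15, pandas 2.3.3 and SciPy 1.17.1. The counting was tested on simulated peaks. The members and gene lists were chosen with earlier results of these data known. All 34 members are described. Coordinates are given for the member of each role group with the most cortex peaks, the one with the lowest cortex p and all with N2A peaks. From the other lists, the 3 genes with the most cortex peaks and those with N2A peaks are named, except that some are not reported here, and Rab3a was added after its values had been seen. Alternatives changed the p limit, the gene assignment, the strand, the overlap and the end window. Peak sequences and exon positions were not used here.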

Additional observations from a re-analysis of the deposited data

How the results depend on the processing

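Because each list holds no value per sample, no replicate could be left out. No paired analysis was possible for the same reason. The number of members with a cortex peak stayed at 32 or 33 under all 5 alternatives tried. With peaks of p under 0.01, cortex peaks in members numbered 695 and N2A peaks 12, and with p under 0.001 they numbered 459 and 4, since the stricter limits remove peaks. At p under 0.001 only 3 members kept an N2A peak. The cortex share at the gene end was 12.7% at p under 0.01, 17.1% at p under 0.001, 4.84% with a window of 2 kb and 10.6% with one of 10 kb. The N2A share was 25.0% at p under 0.001, over 4 peaks, and 23.8% with a window of 2 kb. With p under 0.01 in both lists, 6 N2A sites overlapped a cortex site. Without Rims2, an alternative chosen after seeing the data, the fourth quintile of long genes held 23.0% of peaks in place of 26.5%. The other 19 of 32 alternative values moved by less than 1.5 times for counts, or stayed within the interval for shares.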

Other observations

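Beyond the annotated end of Stxbp5l, 6 further cortex peaks lay on its strand, 2.19 to 8.85 kb past the RefSeq gene end and outside every annotated gene, with a lowest p of 3.26e-12. They are not counted among its 149 peaks. Snap25 had 2 such peaks, 1.29 and 2.45 kb past its end (lowest p 0.000646), and Rims2 had 2, 1.64 and 5.70 kb past its end (lowest p 0.0198). The lists do not say which transcript a peak belongs to.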
